A study of Mus musculus with 16 samples.

Results

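GATA2 was returned to mouse hematopoietic progenitors that lack the -77 enhancer of its own gene, and the chromatin that opened and closed was mapped over the genome. The comparison rests on 8 of the 16 ATAC-Seq libraries of the study, in which a transposase cuts and tags accessible DNA. The source of all 16 was mouse fetal liver, whose progenitors had been made immortal by a HoxB8 that depends on estrogen and were grown in β-estradiol, and all carried a retroviral vector for 3 d before sorting of infected cells. In 4 libraries hi-77-/- cells, homozygous for the enhancer deletion, carried a GATA2 vector, and in 4 libraries the same hi-77-/- cells carried the empty vector. These are called GATA2 and empty libraries. The deletion, HoxB8, the estradiol and the retrovirus are therefore common to both groups. The other 8 libraries, 4 of hi-77+/+ cells with empty vector and 4 of hi-77-/- cells with 9aa-Ins, a GATA2 protein with extra residues inserted between its zinc fingers, took no part in the calls. The labels name no separate cell line or animal for a replicate, so p-values measure the spread between these libraries. Expression here came from a viral promoter in transformed cells, not from the locus itself.

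In each library the 49000 peaks of highest significance on chromosomes 1 to 19 and X were kept. Any overlap of 1 bp joined peaks across the 16 libraries, which gave 90549 regions, and a library was scored as having a region when a kept peak lay in it. A region was called opened when it had a peak in 4 of 4 GATA2 and 0 of 4 empty libraries, and closed in the reverse case. By this rule 1565 regions opened (1.73% of all regions) and 2021 closed (2.23%), together 3586 regions, whereas 25272 were open in all 8 libraries. These calls are a description and carry no test. The other group had no weaker deposited peak at 859 opened (54.9%) and 968 closed regions (47.9%). GATA2 replicates 1 and 3 had 49852 and 53743 peaks in all on these chromosomes, against 63924 to 74292 in empty libraries. Few weaker peaks were thus on record for closed regions in these replicates, and the opened and closed shares cannot be compared.

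GATA2 is a zinc finger transcription factor that stem cells and early progenitors need. It binds DNA at the sequence WGATAR, often together with the basic helix-loop-helix factor TAL1 at an adjoining E-box and with the adaptors LMO2 and LDB1. GATA2 shares many of its sites with ETS factors and RUNX1, and has a known part in mast cells and megakaryocytes. The -77 enhancer drives Gata2 in myeloid and erythroid progenitors, and cells without it are low in GATA2.

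The sequences below come from opened regions at genes with a known part in mast cell, erythroid, megakaryocyte or stem cell biology, and from opened regions among the 10 of highest rank. Except for the Cxcr4 sequence, they were chosen because they hold WGATAR. They are shown to make visible how WGATAR lies under the accessible site. Each is the 200 bp around the peak summit, plus strand, RefSeq GRCm38.p6. Capitals mark WGATAR on either strand, where W is A or T and R is A or G around the core GATA. In the Il1rl1, Cpa3, Gata1 and Postn sequences capitals also mark an E-box (CANNTG) placed before WGATAR at a distance of 6 to 14 bp.
Kit, 114 kb upstream, chr5:75460589-75460788: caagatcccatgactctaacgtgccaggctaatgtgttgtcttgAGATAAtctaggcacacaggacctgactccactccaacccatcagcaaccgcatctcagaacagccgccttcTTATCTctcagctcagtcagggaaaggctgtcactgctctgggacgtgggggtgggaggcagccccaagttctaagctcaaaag
Capzb, 12.9 kb upstream, chr4:139179908-139180107: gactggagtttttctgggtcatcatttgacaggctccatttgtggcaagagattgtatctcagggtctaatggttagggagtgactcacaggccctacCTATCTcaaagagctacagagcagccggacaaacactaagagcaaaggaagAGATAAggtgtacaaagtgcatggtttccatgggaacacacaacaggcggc
Postn, 144 kb downstream of the start site, chr3:54505066-54505265: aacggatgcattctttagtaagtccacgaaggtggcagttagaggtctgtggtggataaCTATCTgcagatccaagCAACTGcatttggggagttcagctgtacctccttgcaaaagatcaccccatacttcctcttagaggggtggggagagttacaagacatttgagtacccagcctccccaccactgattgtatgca
Il1rl1, 10.9 kb upstream, chr1:40418573-40418772: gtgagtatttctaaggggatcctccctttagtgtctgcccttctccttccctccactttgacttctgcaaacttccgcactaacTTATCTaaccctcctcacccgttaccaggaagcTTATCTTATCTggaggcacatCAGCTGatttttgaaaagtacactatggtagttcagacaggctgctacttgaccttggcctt
Cpa3, promoter, chr3:20242171-20242370: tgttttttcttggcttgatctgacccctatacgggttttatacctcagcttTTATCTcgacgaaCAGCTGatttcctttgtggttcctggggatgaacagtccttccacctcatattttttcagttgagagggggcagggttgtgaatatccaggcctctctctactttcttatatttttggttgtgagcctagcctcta
Csf2rb, 7.24 kb upstream, chr15:78318409-78318608: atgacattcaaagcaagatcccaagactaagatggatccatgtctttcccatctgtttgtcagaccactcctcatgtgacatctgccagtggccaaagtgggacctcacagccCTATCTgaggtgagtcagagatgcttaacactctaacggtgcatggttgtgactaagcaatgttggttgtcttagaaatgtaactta
Gata1, 3.55 kb upstream of the nearest start site and in an intron, chrX:7971356-7971555: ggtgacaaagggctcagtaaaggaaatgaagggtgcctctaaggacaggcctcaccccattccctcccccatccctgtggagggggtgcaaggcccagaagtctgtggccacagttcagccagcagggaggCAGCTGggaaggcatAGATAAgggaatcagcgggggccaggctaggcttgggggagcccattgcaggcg
Zfpm1, intron, chr8:122309449-122309648: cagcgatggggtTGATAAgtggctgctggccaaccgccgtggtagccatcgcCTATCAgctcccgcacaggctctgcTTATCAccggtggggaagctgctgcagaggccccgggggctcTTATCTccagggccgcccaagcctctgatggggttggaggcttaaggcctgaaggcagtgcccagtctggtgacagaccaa
The region next to Cxcr4 stands for the opened regions without the pattern in this window.
Cxcr4, 22.1 kb downstream, chr1:128570128-128570327: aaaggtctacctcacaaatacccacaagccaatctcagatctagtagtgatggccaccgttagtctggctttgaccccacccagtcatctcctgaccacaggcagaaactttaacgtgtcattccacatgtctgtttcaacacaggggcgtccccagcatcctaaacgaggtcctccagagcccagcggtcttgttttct

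The Zfpm1 window held 4 WGATAR sequences and the Il1rl1 window 3, of which a pair overlapped. The spacer between E-box and WGATAR was 7 bp in Cpa3, 9 bp in Gata1, 10 bp in Il1rl1 and 11 bp in Postn.

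Closed regions read differently. The sequences below were chosen among closed regions because they hold GAGGAA, a purine-rich form of the ETS site that PU.1 prefers, or, in Cdh23, the palindrome of TCCC and GGGA 2 bp apart that early B cell factor (EBF1) recognizes. Capitals mark these letters in either orientation.
Mn1, 136 kb downstream, chr5:111553615-111553814: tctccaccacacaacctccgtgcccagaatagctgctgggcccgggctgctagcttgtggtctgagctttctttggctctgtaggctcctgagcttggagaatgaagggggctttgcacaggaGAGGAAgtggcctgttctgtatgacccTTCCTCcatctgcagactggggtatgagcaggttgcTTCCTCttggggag
Lifr, intron, chr15:7113977-7114176: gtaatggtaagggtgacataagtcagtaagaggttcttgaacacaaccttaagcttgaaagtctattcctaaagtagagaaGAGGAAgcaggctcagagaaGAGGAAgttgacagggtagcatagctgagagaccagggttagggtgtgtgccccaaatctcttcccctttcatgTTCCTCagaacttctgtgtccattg
Il6st, 30.6 kb upstream, chr13:112433402-112433601: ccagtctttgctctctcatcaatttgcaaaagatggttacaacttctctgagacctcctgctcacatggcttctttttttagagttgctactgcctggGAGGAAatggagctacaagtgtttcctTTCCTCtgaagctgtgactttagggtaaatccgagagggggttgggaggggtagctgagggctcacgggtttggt
Cebpa, 20.2 kb upstream, chr7:35098954-35099153: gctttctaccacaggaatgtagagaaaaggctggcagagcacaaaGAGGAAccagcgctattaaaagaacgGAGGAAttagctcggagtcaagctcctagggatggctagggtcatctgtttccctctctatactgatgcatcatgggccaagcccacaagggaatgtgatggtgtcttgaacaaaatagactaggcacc
Irf8, 24.8 kb downstream, chr8:120763357-120763556: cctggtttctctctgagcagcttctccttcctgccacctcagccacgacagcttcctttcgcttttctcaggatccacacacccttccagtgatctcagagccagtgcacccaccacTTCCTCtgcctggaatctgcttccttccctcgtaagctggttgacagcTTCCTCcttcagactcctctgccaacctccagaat
Cdh23, intron, chr10:60619237-60619436: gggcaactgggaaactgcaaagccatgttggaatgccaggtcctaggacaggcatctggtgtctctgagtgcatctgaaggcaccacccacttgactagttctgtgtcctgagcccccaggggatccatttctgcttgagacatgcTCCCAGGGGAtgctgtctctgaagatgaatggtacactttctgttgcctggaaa
No WGATAR lay in any of these 6 windows.

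Most regions that opened with GATA2 held WGATAR, and few that closed did. Of the 1394 opened regions that lay more than 3 kb from a protein-coding start site, called distal here, 76.9% held WGATAR within the 200 bp around the summit. The share was 29.3% of all 68172 distal regions, 27.8% of the 13847 distal regions open in all 8 libraries and 15% of the 1796 closed distal regions. At the 171 opened promoters the share was 69.0%, against 17.4% of all promoter regions. AGATAA was the most frequent form, in 47.3% of opened and 11.3% of all distal regions. These shares are descriptions of the called regions. Across 6 ways of keeping peaks and libraries, opened distal regions held WGATAR in 73.8% to 78.9% and closed ones in 12.9% to 15.1%.

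Each pattern was then tested as a share of all kept peaks of each library. The same peaks made the calls, and peaks at opened and closed regions are among them, so the shares are not independent of the calls. WGATAR lay in 26.1%, 26.8%, 27.2% and 27.2% of the 49000 peaks of GATA2 replicates 1 to 4. In empty replicates 1 to 4 the values were 20.2%, 20.2%, 20.1% and 20.5%. All GATA2 libraries were above all empty libraries. The share rose by 6.59 percentage points, from 20.2% ± 0.160 (SD, n = 4) to 26.8% ± 0.496 (SD, n = 4), with a two-sided exact permutation p = 0.0286 (the smallest p that 4 against 4 libraries can give) and a Benjamini-Hochberg adjusted p = 0.0464 over 13 shares tested.

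The composite of an E-box and WGATAR, the element bound by GATA factors together with TAL1, lay in 2.07% ± 0.0647 (SD, n = 4) of GATA2 peaks and 1.37% ± 0.0368 (SD, n = 4) of empty peaks. A pair of WGATAR sequences that did not overlap and lay at most 5 bp apart was present in 0.566% ± 0.0346 against 0.283% ± 0.0180 (SD, n = 4 each). TGANTCA, the AP-1 site, also rose, from 9.85% ± 0.176 to 10.5% ± 0.269 (SD, n = 4 each). For each of these 3 shares the groups did not overlap (exact permutation p = 0.0286, adjusted p = 0.0464). Peaks with the composite or the pair also count in the WGATAR share.

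In the opposite direction, GAGGAA fell by 3.66 percentage points, from 31.5% ± 0.416 of empty peaks to 27.8% ± 0.566 of GATA2 peaks (SD, n = 4 each). The EBF palindrome fell from 1.99% ± 0.0705 to 1.03% ± 0.0348, the interferon regulatory factor pattern (GAAA repeated after 2 bp) from 2.12% ± 0.0494 to 1.88% ± 0.0962, and the E-box CAGATG from 16.4% ± 0.110 to 15.8% ± 0.250 (SD, n = 4 each). Each of these 4 shares likewise reached the smallest exact permutation p of 0.0286, adjusted p = 0.0464. The remaining patterns did not pass. TGTGGT, the RUNX site, lay in 22.8% ± 0.490 of GATA2 and 23.2% ± 0.478 of empty peaks (exact permutation p = 0.314). TTGCNNAA, the C/EBP site, lay in 10.4% ± 0.580 and 10.1% ± 0.168 (exact permutation p = 0.314, SD, n = 4 each). The STAT pattern TTCNNNGAA and the HOX pattern TGATTNAT gave adjusted p-values of 0.712 and 0.886. Since no exact p can go below 0.0286, the adjusted value of such a share is set by how many of the 13 shares reach it. With a window of 400 bp the smallest adjusted p was 0.0531 and no share passed. The adjusted call thus holds for 200 bp windows only, and this difference does not by itself show an effect of the window.

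**Figure D1:**
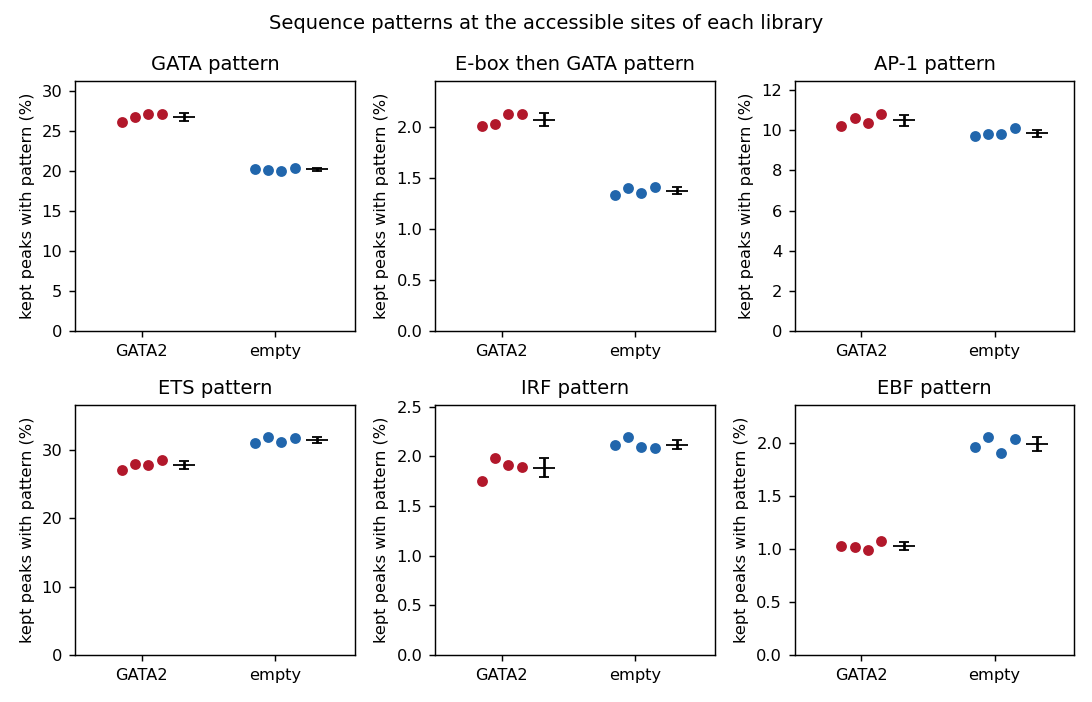
Percent of the 49000 kept peaks of each library (y axis, from 0) whose 200 bp around the summit hold the pattern named above each panel. Points are the 4 GATA2 (red) and 4 empty (blue) libraries, and the black bar is the mean ± SD. The GATA pattern was at 26.1% to 27.2% in GATA2 and 20.1% to 20.5% in empty libraries, and the EBF pattern at 0.992% to 1.08% and 1.91% to 2.06%.

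Around the summit WGATAR peaked in opened and dipped in closed regions. In opened distal regions WGATAR was found 15.2 times per 100 regions per 20 bp within 50 bp of the summit and 4.94 times at 400 to 500 bp. Closed distal regions had a dip, with 1.55 at the centre and 4.07 at the flanks, while regions open in all 8 libraries were flat at 3.57 and 3.89. GAGGAA was centred on all 3 kinds of region, at 7.92 per 100 regions per 20 bp against 2.15 at the flanks in closed ones, 5.54 against 2.18 in those open in all 8, and 3.28 against 1.98 in opened ones.

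**Figure D2:**
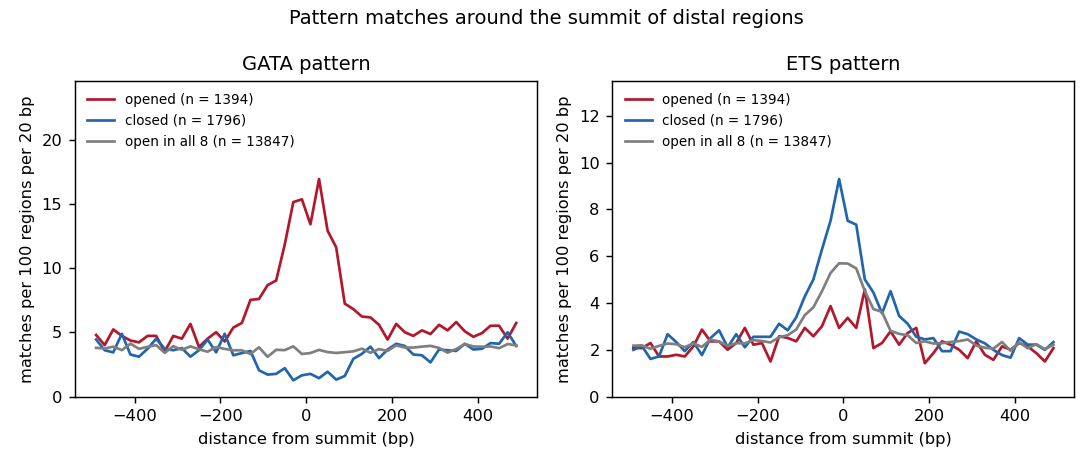
Matches per 100 distal regions per 20 bp (y axis) against distance from the summit in bp (x axis) for the GATA pattern WGATAR (left) and the ETS pattern GAGGAA (right), in 1394 opened, 1796 closed and 13847 regions open in all 8 libraries. The GATA pattern peaked at the centre of opened and dipped at the centre of closed regions.

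The more WGATAR sequences a distal region held, the more often it opened. Of distal regions without one, 0.669% opened and 3.17% closed. With 1 sequence 4.03% opened and 1.61% closed, with 2 the shares were 8.67% and 0.532%, and with at least 3 they were 15% and 0.240%. Of the opened distal regions 23.1% held none in the window. The composite with an E-box lay in 7.89% of opened, 2.32% of all and 0.835% of closed distal regions. Within opened regions spacers of 8, 9 and 10 bp were the most frequent, with 21, 22 and 19 regions (1.51%, 1.58% and 1.36%). Over all distal regions these spacers stood at 0.384%, 0.290% and 0.241%, and 7 bp was the most frequent at 0.403%.

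Other patterns in opened distal regions lay less far from the rest. TGANTCA was present in 20.9% of opened, 9.86% of closed and 12.5% of all distal regions, and TGTGGT in 35.4%, 32.7% and 27.5%. TTGCNNAA was in 16.7%, 9.47% and 12.3%. Closed distal regions held GAGGAA in 45.4% (25.9% of opened, 31.8% of all distal regions) and the EBF palindrome in 9.47% (0.215% of opened, 1.6% of all).

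Just outside the calls, 713 regions had peaks in 4 GATA2 and 1 empty library, 1388 in 3 and 0, 1577 in 0 and 3, and 1338 in 1 and 4. Among distal regions without a peak in any empty library, WGATAR lay in 42.8% of those with a peak in 1 GATA2 library, 51.6% with 2, 62.0% with 3 and 76.9% with 4. Among distal regions without a peak in any GATA2 library, it lay in 21.3%, 19.2%, 16.3% and 15% as the number of empty libraries with a peak went from 1 to 4, and the EBF palindrome in 2.79%, 4.25%, 6.66% and 9.47%.

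Peak height at the 25272 regions open in all 8 libraries, which cannot be among the calls, gave a separate measure. The highest fold enrichment in each region was quantile normalized on the log2 scale and compared with limma. At a Benjamini-Hochberg adjusted p under 0.05, 2170 regions were higher with GATA2 (8.59% of those tested) and 2820 lower (11.2%). An absolute log2 fold change over 1 was reached by 170 and 418 of them. Promoters made up 30.3% of the higher and 16.9% of the lower regions, against 45.2% of all tested. With median scaling in place of quantiles, 2755 were higher and 2654 lower, so which direction prevailed depended on the scaling.

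Distal regions that gained height held WGATAR in 53.4%, those that lost height in 17%, and those that passed in neither direction in 26.5%. GAGGAA lay in 27.5%, 50.6% and 32.7%, and the EBF palindrome in 0.198%, 5.89% and 0.811%. From log2 fold changes below -1 to those above 1, in 6 steps, WGATAR went from 13.8% through 16%, 22.4%, 30.9% and 54.2% to 78.7% of distal regions.

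**Figure D3:**
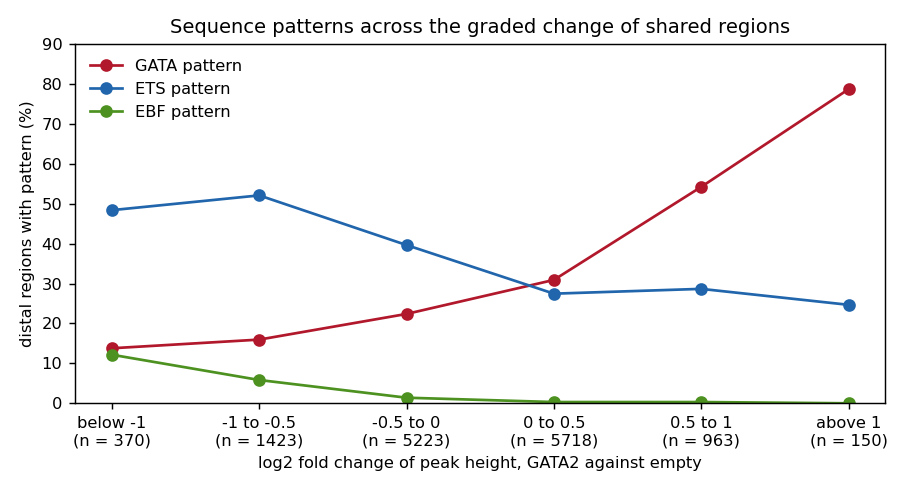
Percent of distal regions that hold each pattern (y axis) in 6 bins of log2 fold change of peak height, GATA2 against empty (x axis), for regions open in all 8 libraries. The GATA pattern (red) went from 13.8% to 78.7%, the ETS pattern (blue) from 48.4% to 24.7% and the EBF pattern (green) from 12.2% to 0 from the lowest to the highest bin.

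The regions with the largest gain lay 91.6 kb downstream of the start site of Dirc2 (log2 fold change 1.78 ± 0.156 SE), in an intron of Slc16a10, a transporter of aromatic amino acids (1.74), 77.9 kb upstream of Ndufb6 (1.69), 29.1 kb from Ptgs1, a cyclooxygenase (1.68), and in an intron near Angptl7 (1.67). On the normalized log2 scale the Dirc2 region stood at 4.77, 4.78, 4.91 and 4.64 in GATA2 replicates 1 to 4 and at 3.41, 2.55, 2.94 and 3.09 in empty replicates 1 to 4. The groups did not overlap (limma, Benjamini-Hochberg adjusted p = 4.8e-13). The largest losses lay 16 kb upstream of Fchsd2 (-2.01 ± 0.148 SE), 15.5 kb upstream of Fam49b (-1.99), 85.5 kb from Tas1r2 (-1.97), 14.6 kb upstream of Etv6, an ETS repressor (-1.88), and in an intron of Il16 (-1.88). At Fchsd2 the values were 2.72, 2.71, 3.11 and 3.28 with GATA2 and 4.91, 4.96, 5.16 and 4.85 with empty vector (adjusted p = 2.5e-15), again without overlap.

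Opened and closed regions lay away from promoters. A start site lay within 3 kb of 10.9% of opened and 11.1% of closed regions, against 24.7% of all regions and 45.2% of those open in all 8. Introns held 47.9% of opened and 44.2% of closed regions, and intergenic DNA 38.4% and 41.4%. The median distance to the nearest start site was 23.9 kb for opened and 25.0 kb for closed regions. Every chromosome took part, with 1.31% to 2.24% of its regions opened and 1.33% to 3.01% closed. Among neighboring changed regions within 20 kb of each other, 155 pairs were both opened, 168 were both closed and 85 were mixed.

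The opened region of highest rank lay far from any start site, 1354 kb from that of Cdh8 (chromosome 8, 98061452 to 98062247, GRCm38). Its peaks were 13.8, 21.1, 25.1 and 30.0 fold over background in GATA2 replicates 1 to 4, and empty libraries had no peak there at all. Capzb, which caps actin filaments, had the third, 12.9 kb upstream (chromosome 4, 139179699 to 139180288; 15.9, 16.5, 20.2 and 21.8 fold). Kit, the receptor for stem cell factor and a known GATA2 target, had the ninth, 114 kb upstream (chromosome 5, 75460322 to 75460876; 13.2, 17.8, 16.5 and 23.9 fold), which held 2 WGATAR sequences. No hi-77+/+ and no 9aa-Ins library had a kept peak at the Kit region, and 2 of 4 empty libraries had a weaker peak that was not kept. The other opened regions among the first 10 lay at Ahi1, Ywhaz, Tmem268, Postn, 4932438H23Rik, Il6 and Emx2. The calls at Ahi1 and Il6 were not made when tied peaks at the end of each list were all kept.

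Among closed regions the first lay 65.6 kb upstream of Med13l, a Mediator kinase module subunit (chromosome 5, 118494596 to 118495792). Peaks there were 25.4, 26.8, 25.1 and 27.0 fold over background in empty replicates 1 to 4. The fourth was the Cdh23 intron printed above (chromosome 10, 60618921 to 60619638; 24.7, 24.7, 20.3 and 24.0 fold). Mn1, a transcriptional coregulator of myeloid leukemia, had the fifth (chromosome 5, 111553364 to 111554038; 21.0, 24.7, 18.3 and 24.6 fold), with 3 GAGGAA sequences. The others lay at Zfp619, Rgs6, Hs6st1, Etv3, Bmf, Rhoq and Sparc, of which Rgs6 and Sparc depended on the tied peaks. All 10 had peaks in 4 of 4 9aa-Ins libraries, and 4 of them, at Zfp619, Rgs6, Hs6st1 and Rhoq, had none in hi-77+/+ libraries.

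Regions were assigned to the protein-coding gene with the nearest start site within 100 kb and to any gene whose body they overlapped. Of 17645 genes with a region, 1307 had an opened one (7.41%), 1673 a closed one (9.48%) and 234 both (1.33%). At least 2 opened regions fell to 200 genes (1.13%) and at least 2 closed ones to 266 (1.51%). For 8238 genes with a mean of at least 2 open regions over the 8 libraries, log2 of the number of open regions plus 1 was compared with limma. At a Benjamini-Hochberg adjusted p under 0.05, 283 genes had more open regions with GATA2 (3.44% of those tested) and 428 fewer (5.2%). Without empty replicate 1, 2, 3 or 4 the number with fewer was 280, 280, 276 or 249, and without empty replicate 4 the number with more was 231. In these bulk libraries, a change in the share of cells of a kind and a change in accessibility within each cell cannot be told apart. The gene lists below were chosen with earlier results of these data known, so shares over a list are a description and no independent support.

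Cpa3 and Il1rl1, both mast cell genes, had more open regions with GATA2. Of 15 measured mast cell, basophil and eosinophil genes 5 had an opened region (33.3%, against 7.41% of all genes) and 0 a closed one. In the count of open regions 2 of 10 tested genes rose, 0 fell, and the median log2 fold change of the list was 0.32 (0 over all genes tested). Cpa3, the mast cell carboxypeptidase, had 4, 5, 7 and 4 open regions in GATA2 replicates 1 to 4 and 1, 2, 2 and 2 in empty replicates, without overlap (log2 fold change 1.118 ± 0.206 SE, limma adjusted p = 0.0232). Il1rl1, the receptor for interleukin 33, had 5, 6, 6 and 7 against 4, 1, 2 and 2 (1.18 ± 0.270 SE, adjusted p = 0.0447). The other tested genes of the list did not pass: Hdc, Prg2, Prg3, Tpsab1 and Cma1 had positive log2 fold changes, and Mitf, Ccr3 and Siglecf negative ones. Hdc had no changed region (limma adjusted p = 0.328).

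The opened Cpa3 promoter (chromosome 3, 20242012 to 20242404) lay 0.09 kb from the start site, with peaks of 7.41, 7.93, 7.35 and 10.2 fold in GATA2 libraries, and no hi-77+/+ or 9aa-Ins library had a peak there. Ms4a2, the β chain of the IgE receptor, had a single region, which opened 1.72 kb from its start site, and Il5ra, the interleukin 5 receptor α chain, had an opened intron. At Il1rl1 (chromosome 1, 40418590 to 40418887) peaks were 9.52, 5.94, 7.35 and 5.45 fold, and this call, like that at the Tpsab1 tryptase promoter, depended on the tied peaks.

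Of 19 erythroid and megakaryocyte genes 3 had an opened and 3 a closed region (15.8% each, against 7.41% and 9.48% of all genes), and 0 of 9 tested passed in the count of open regions. Gata1, the erythroid GATA factor, opened at its promoter 0.066 kb from the start site and again 3.55 kb upstream, where the printed sequence with an E-box lies (chromosome X, 7971292 to 7971591; 6.35, 6.60, 9.18 and 8.18 fold). Gata1 had 3, 2, 3 and 2 open regions with GATA2, 1, 0, 0 and 0 with empty vector and 0 in each hi-77+/+ and 9aa-Ins library, too few on average for the test. Zfpm1, which encodes the GATA cofactor FOG1, shows sites exchanged without a change in number. It had 18, 18, 15 and 17 open regions with GATA2 and also 18, 18, 15 and 17 with empty vector, among them 4 opened and 3 closed, of which tied peaks decided 2 opened and 1 closed. Of its opened regions, 1 had 4 WGATAR sequences (chromosome 8, 122309293 to 122309683; 7.94, 8.59, 7.96 and 12.3 fold). Pf4, platelet factor 4, had an opened region, whose call depended on tied peaks, and Gfi1b and Hbb-bt had a closed one.

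Among cytokine receptors Csf2rb, Csf2rb2 and Csf2ra had more open regions with GATA2, while Il3ra, the interleukin 3 receptor α chain, did not pass (limma adjusted p = 0.13) and Il5ra had too few regions for the test. The shared β chain of the interleukin 3, interleukin 5 and GM-CSF receptors is encoded by Csf2rb, beside its close copy Csf2rb2, so that reads may be hard to place between them. Csf2rb had 7, 6, 7 and 6 open regions with GATA2 and 3, 3, 3 and 2 with empty vector, with no overlap (log2 fold change 1.01 ± 0.113 SE, limma adjusted p = 0.00373). Csf2rb2 had 3, 4, 4 and 3 against 2 in each empty library (0.58 ± 0.0891 SE, adjusted p = 0.0133), and Csf2ra, the GM-CSF receptor α chain, 5 in each GATA2 and 4 in each empty library (0.26 ± 0.0167 SE, adjusted p = 1.7e-04). The whole-number counts of Csf2ra had no spread within either group, on which its small p-value rests. With all deposited peaks Csf2ra did not pass (limma adjusted p = 0.138). Opened regions with WGATAR lay 7.24 kb upstream of Csf2rb, 7.37 kb upstream of Csf2rb2 and 19.7 kb from Csf2ra, and none of the 3 had a peak in a hi-77+/+ or 9aa-Ins library.

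Ifngr1, the interferon γ receptor, went the other way, with 3 open regions in each GATA2 library and 5, 6, 6 and 7 in empty libraries (log2 fold change -0.80 ± 0.0823 SE, limma adjusted p = 0.00233). Receptors of the gp130 family, Il6st and Lifr, each had a closed region, and Il10ra had 2, but none of the 3 passed in the count of open regions (adjusted p = 0.0766, 0.187 and 0.0588). Over the 22 receptors 7 had an opened region (31.8%, against 7.41% of all genes) and 4 a closed one (18.2%, against 9.48%), and among 18 tested 4 rose and 1 fell (3.44% and 5.2% of all genes tested), with a median log2 fold change of -0.17. Kit had 2, 5, 2 and 4 open regions within 100 kb with GATA2 and 3, 2, 1 and 2 with empty vector (adjusted p = 0.414).

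Irf8 and Klf4 had fewer open regions with GATA2. Of 20 monocyte, dendritic cell and innate immune genes 9 had a closed region (45%, against 9.48% of all genes) and 2 an opened one (10%, against 7.41%), and among 12 tested 2 fell and 0 rose, with a median log2 fold change of -0.24. Tifab, Ifi209, Nlrp1a and Trem1, at which the authors showed sites less accessible with GATA2, had no changed region by the rule used here. Irf8, the factor that drives monocyte and dendritic cell fate, had 5, 6, 7 and 4 open regions with GATA2 and 9, 9, 11 and 9 with empty vector (log2 fold change -0.71 ± 0.153 SE, limma adjusted p = 0.0411). Klf4, a monocyte factor, had 5, 4, 4 and 4 against 6, 7, 8 and 7 (-0.61 ± 0.0953 SE, adjusted p = 0.0134). Neither pair of groups overlapped. In hi-77+/+ libraries Irf8 had 9, 8, 8 and 10 open regions and Klf4 had 4, 5, 5 and 5.

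At Irf8 3 regions closed, 10.8 kb upstream and 24.8 and 68.7 kb downstream of the start site, the second of them printed above and dependent on tied peaks. Csf1r, the macrophage colony-stimulating factor receptor, closed at its promoter (0.042 kb from the start site; 10.9, 9.17, 6.78 and 6.60 fold in empty libraries) and opened at an intron 21.9 kb downstream (10.6, 11.9, 12.2 and 17 fold in GATA2 libraries). The Toll-like receptor genes Tlr1, Tlr2 and Tlr7 each had a closed region, with the Tlr2 call dependent on tied peaks, and Ly86 had 2.

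Pax5, Rag2 and Blnk also had fewer. Of 17 B-lineage genes 4 had a closed region (23.5%, against 9.48% of all genes) and 2 an opened one (11.8%, against 7.41%), and among 12 tested 3 fell and 0 rose (5.2% and 3.44% of all genes tested), with a median of -0.26. Pax5, the B cell commitment factor, had 2, 4, 2 and 3 open regions with GATA2 and 6, 6, 5 and 5 with empty vector (log2 fold change -0.82 ± 0.181 SE, limma adjusted p = 0.0426). Rag2, a regulator of V-D-J recombination, had 2, 1, 1 and 2 against 3 in each empty library (-0.71 ± 0.160 SE, limma adjusted p = 0.0443). Rag1, another such regulator, had 1 in each GATA2 library and 0, 0, 0 and 1 in empty libraries, too few for the test. The B cell linker Blnk had 2 in each GATA2 library against 3, 4, 4 and 3 (-0.58 ± 0.0891 SE, limma adjusted p = 0.0133). Dntt, terminal transferase of early lymphoid cells, had 3 closed regions, and Cd79a closed 0.034 kb from its start site (16, 12.7, 10.9 and 9.60 fold in empty libraries). Ebf1, whose product binds the EBF palindrome, had 12.5 ± 0.577 open regions with GATA2 and 12.5 ± 1 with empty vector (SD, n = 4 each).

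These counts of open regions are small, and the gene calls differed in how well they held. All 15 list genes past it kept their direction in every alternative run. In the 8 fits that each left out 1 library, Csf2rb, Csf2rb2, Csf2ra, Ifngr1, Myb, Gfi1, Klf4 and Blnk passed each time. The call at Cpa3 was lost without GATA2 replicate 2 or empty replicate 4 (limma adjusted p up to 0.0579). Il1rl1 passed without empty replicate 1 alone, Pax5 without GATA2 replicate 2 alone, Irf8 and Cxcr2 without GATA2 replicate 3 or 4, Rag2 without GATA2 replicate 1 or 4, and Cebpa in none of the 8, with adjusted p-values up to 0.116. When all deposited peaks were used, 2 of the 15 passed, Cpa3 (limma adjusted p = 0.0363) and Csf2rb (0.0298).

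**Figure D4:**
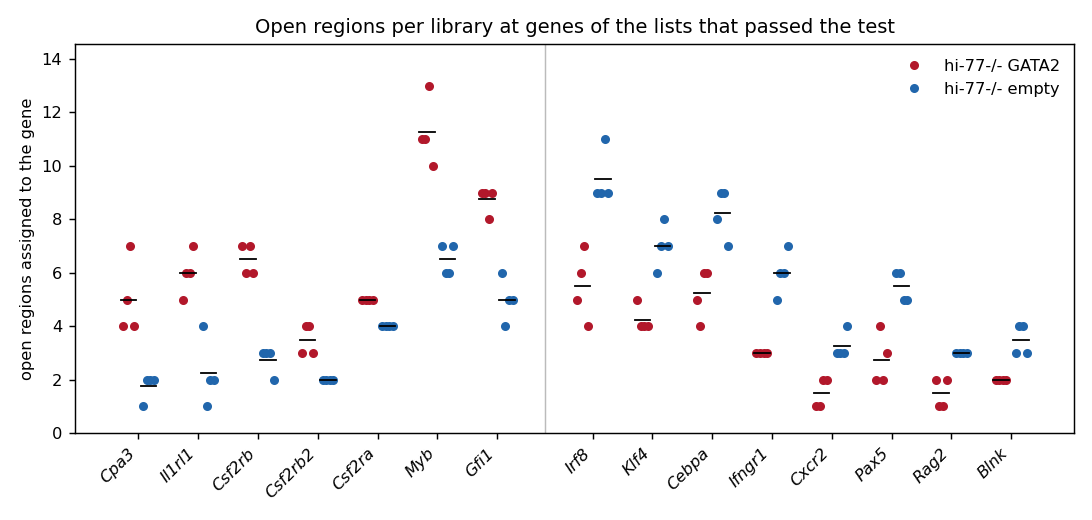
Number of open regions assigned to each gene (y axis, from 0) in the 4 GATA2 (red) and 4 empty (blue) libraries, for the 15 genes of the lists past an adjusted p of 0.05 in limma. Points are libraries, spread sideways within a group, and black lines are means. Genes left of the grey line had more and those right of it fewer open regions with GATA2, from Csf2rb at 6 to 7 against 2 to 3 to Irf8 at 4 to 7 against 9 to 11.

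Among neutrophil genes Gfi1 rose and Cebpa fell. Gfi1, a repressor needed for neutrophil maturation, had 9, 9, 8 and 9 open regions with GATA2 and 6, 4, 5 and 5 with empty vector (log2 fold change 0.71 ± 0.102 SE, limma adjusted p = 0.0114). Cebpa, which drives granulocyte and monocyte commitment, had 5, 4, 6 and 6 against 8, 9, 9 and 7 (-0.57 ± 0.132 SE, adjusted p = 0.046), and the printed region 20.2 kb upstream closed. Elane, Mpo and Prtn3, which encode granule proteins, had no changed region. Among the 13 genes 1 had an opened and 1 a closed region (7.69% each), near the 7.41% and 9.48% of all genes.

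Of 18 stem and progenitor transcription factors 9 had an opened region (50%, against 7.41% of all genes), 4 a closed one (22.2%, against 9.48%) and 3 both (1.33% of all genes had both). Genes with many regions have more chances to hold a changed one, and here Etv6 had 47 regions, Erg 38 and Runx1 36. Myb, required for definitive hematopoiesis, had 11, 11, 13 and 10 open regions with GATA2 and 7, 6, 6 and 7 with empty vector (log2 fold change 0.71 ± 0.0877 SE, limma adjusted p = 0.00596), the 1 gene of 17 tested to pass. Its 2 opened regions lay 27.0 and 35.8 kb upstream, the second dependent on tied peaks. Runx1 kept a similar number of open regions, 22.0 ± 2.16 against 21.0 ± 0.816 (SD, n = 4 each), while 2 of its regions opened and 2 closed, and Lmo2 had 1 opened and 3 closed. Tied peaks decided 1 opened and 1 closed region of Runx1, and the opened and 1 closed region of Lmo2. The ETS repressor gene Etv6 opened in an intron and Erg closed at 2 intronic sites, of which the Etv6 call and 1 at Erg depended on tied peaks.

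Among 14 G protein-coupled receptors 2 had an opened region (14.3%, against 7.41% of all genes) and 5 a closed one (35.7%, against 9.48%). Cxcr2, the neutrophil chemokine receptor, had 1, 1, 2 and 2 open regions with GATA2 and 3, 3, 3 and 4 with empty vector (log2 fold change -0.79 ± 0.178 SE, limma adjusted p = 0.0443), the 1 of 10 tested to pass. Closed regions also lay at the sphingosine receptor S1pr1, the cannabinoid receptor Cnr2, and Adora2b and P2ry12, both dependent on tied peaks, whereas Cxcr4 and S1pr4 opened. Of 17 ETS factor genes 4 had an opened and 4 a closed region (23.5% each, against 7.41% and 9.48% of all genes), and 0 of 13 tested passed. Here too some genes with many regions had more chances to hold a changed one. Etv6 had 47 regions, Erg 38 and Fli1 25, and among the receptors S1pr1 had 23 and Cxcr4 20. The shares of genes in all lists were not adjusted for the number of regions, and its part in them was not tested.

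Over the 9 lists, 40 opened and 47 closed regions were assigned to list genes. WGATAR lay in 27 of the 40 opened and 6 of the 47 closed windows, and GAGGAA in 12 and 20. Of the opened ones 24 were also called with tied peaks kept and with tied peaks dropped, and of the closed ones 37.

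Outside the lists, the most opened regions fell to Gm20388, a readthrough gene model of 4435 kb whose 9 opened and 22 closed regions belong to many genes. Zbtb16, which encodes the zinc finger factor PLZF, followed with 6, and had 16, 17, 16 and 17 open regions with GATA2 and 7, 7, 7 and 8 with empty vector. Ston2, an endocytic adaptor, had 5 opened regions and 12, 13, 12 and 12 open regions against 5, 6, 6 and 5. At Il2, interleukin 2, 4 of 5 regions opened, with 4 open in each GATA2 library and 0, 1, 0 and 1 in empty libraries. Fgfr2, with 7 closed and 4 opened regions, and Gm37240, with 5 closed and 3 opened, are likewise long models, of 2961 and 1391 kb, and their numbers of open regions overlapped between the groups. Among shorter genes Cdh23 and Lgr6 had the most closed regions, 5 each. Il21r, the interleukin 21 receptor, had 5, 4, 5 and 6 open regions with GATA2 and 13, 11, 14 and 15 with empty vector, and Sash1 had 5, 4, 6 and 7 against 11, 13, 13 and 12.

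The lowest adjusted p-values of the count of open regions belonged to genes whose whole-number counts had no spread within a group. Plscr1, a phospholipid scramblase, and Mterf1b had 3 open regions in each GATA2 library and 1 in each empty library (log2 fold change 1, limma adjusted p = 3.5e-12). Homer1, Nab1, a corepressor of EGR factors, and Ptpn5 had the reverse counts (-1, adjusted p = 3.5e-12). With all deposited peaks Nab1 passed (adjusted p = 0.034) and Plscr1, Mterf1b, Homer1 and Ptpn5 did not.

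At Gata2 itself (chromosome 6, 88193891 to 88207032) the labels were checked. Kept peaks covered 46.5%, 44.4%, 49.0% and 63.2% of the coding bases in GATA2 replicates 1 to 4 and 7.64%, 8.33%, 8.75% and 8.06% in empty replicates (50.8% ± 8.49 against 8.19% ± 0.468, SD, n = 4 each, two-sided exact permutation p = 0.0286). Coverage was 0% in each hi-77+/+ library and 89.9% to 99.6% in 9aa-Ins libraries, so the empty libraries were above hi-77+/+ libraries as well. The GATA2 vector carries the mouse Gata2 coding sequence, and the 9aa-Ins vector carries it with the insertion. Vector and chromosomal reads therefore cannot be told apart at the coding bases, nor at the opened region that touches a coding exon. The call at that opened region also depended on tied peaks. A region 47.8 kb upstream of Gata2 closed (10.2, 16.9, 8.82 and 13.8 fold in empty libraries) and had no peak in hi-77+/+ libraries. At the deleted enhancer, 77 kb upstream, peaks were 22.3 to 28.1 fold in the 4 hi-77+/+ libraries and at most 9.00 fold in hi-77-/- libraries. Weak peaks remained in this merged interval in hi-77-/- cells, and were kept in 1 of 4 GATA2, 1 of 4 empty and 2 of 4 9aa-Ins libraries. The interval was set by the peaks and may reach past the deletion. All 10 progenitor marker promoters examined were open in all 8 libraries and 0 of 6 hepatocyte promoters in any. Of 5 erythroblast promoters, 0 were open in all 8. Of 5 T cell promoters Tcf7 was open in all 8 and the other 4 in none. Of 6 endothelial and stromal promoters Pdgfra was open in all 8, Col1a1 in 3 GATA2 and 4 empty libraries, Pdgfrb in 1 GATA2 library and the other 3 in none.

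Read totals were not used here, so depth enters only through peak number and background. GATA2 libraries had 50195 to 78185 deposited peaks and empty libraries 64258 to 74703. Background pileup was 0.467 to 0.890 and 0.378 to 0.666 (exact permutation p = 0.257). The -log10 p of the last kept peak was 5.35 to 7.43 in GATA2 and 7.38 to 8.13 in empty libraries (exact permutation p = 0.0857). GATA2 replicate 1 had the fewest peaks and the highest background, and without it 2059 regions opened and 2288 closed. Between 2407 and 9094 peaks per library tied with the last kept peak and were taken in order of position. With all tied peaks kept 1516 regions opened and 2307 closed, with all dropped 1422 and 2065, and 1082 opened (69.1%) and 1525 closed regions (75.5%) were called both ways. The part of peak number and background in the calls was not tested.

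How the 8 libraries outside the comparison stood at the changed regions was then measured. At opened regions hi-77+/+ libraries had a kept peak in 22.1%, 19.5%, 18.7% and 16.3%, and 9aa-Ins libraries in 18.8%, 22.4%, 23.3% and 22.6% (difference -2.64 percentage points, two-sided exact permutation p = 0.143). No library of either group had a peak at 722 of the 1565 opened regions (46.1%). At closed regions hi-77+/+ libraries had a peak in 26.1%, 23.1%, 21.2% and 17.4% and 9aa-Ins libraries in 77.1%, 81.9%, 79.1% and 81.7% (difference -58.0 percentage points, exact permutation p = 0.0286). At 696 closed regions (34.4%) all 4 9aa-Ins and no hi-77+/+ libraries had one. Over all regions the shares were 47.9% to 49.97% and 50.2% to 52.6%. Closed regions were picked for peaks in hi-77-/- cells, which 9aa-Ins libraries also are.

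**Figure D5:**
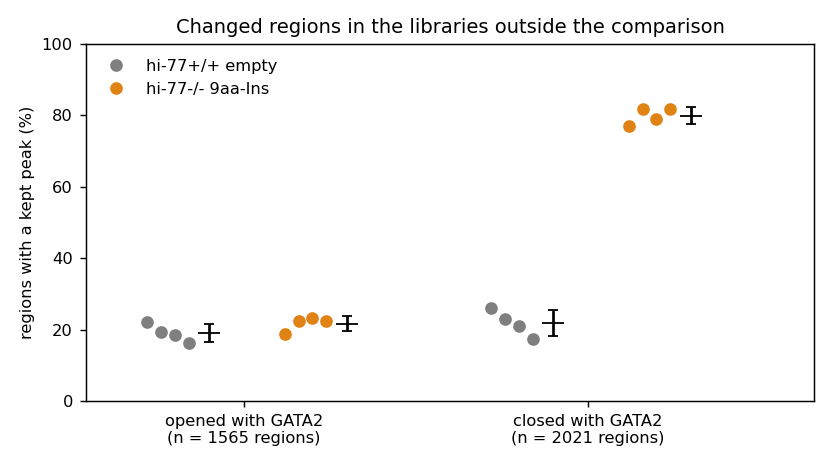
Percent of the 1565 opened and 2021 closed regions with a kept peak (y axis) in the 4 hi-77+/+ empty (grey) and 4 hi-77-/- 9aa-Ins (orange) libraries, which took no part in the calls. Points are libraries and black bars mean ± SD. At opened regions both groups lay between 16.3% and 23.3%, and at closed regions at 17.4% to 26.1% and 77.1% to 81.9%.

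Among opened distal regions WGATAR lay in 81.9% of the 908 without a 9aa-Ins peak and in 60.9% of the 161 with a peak in 4 of 4, whereas TTGCNNAA lay in 12.7% and 35.4%. These shares are given as a description.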

How the data were processed

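ATAC-Seq was done by the authors on 50000 sorted cells per library. Reads were trimmed with Trim Galore 0.4.1, aligned to mm10 with Bowtie2 2.2.5, cleared of duplicates with Picard 2.26.0, and peaks were called per library with MACS2. The deposited peak lists hold, per peak, a fold enrichment (a ratio over background) as signal and the -log10 of the p-value and of the q-value, with the summit. Fold enrichment is relative to each library's own background. The deposited score column of the authors' MACS2 run was not used, and their q-value columns served only as an alternative threshold.

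Members and gene lists were chosen with earlier results of these data known. Per library the 49000 peaks of highest -log10 p were kept (ties by fold, then position) and merged at 1 bp overlap. Genes came from GENCODE M21, sequence from RefSeq GRCm38.p6. A promoter summit lay within 3 kb of a protein-coding start site. Patterns were matched on both strands in 200 bp around the summit, and overlapping matches count. Peak heights and numbers of open regions (pseudocount 1) were compared with limma 3.58.1 (R 4.3.3, trend, Benjamini-Hochberg), shares with two-sided exact permutation tests. Scripts were tested on simulated data. Named were the 10 regions of highest median rank per direction, the 10 genes with most changed regions, list genes with changed regions or past the threshold, and the 5 strongest fits per direction. Same-numbered libraries were not paired. The sequence and values of 1 opened region are not reported here.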

Additional observations from a re-analysis of the deposited data

How the results depend on the processing

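Direction and call of the counts held within 1.5 times except as follows. With only the stronger 50% of the kept peaks, 808 regions opened and 1282 closed, 926 regions open in all 8 libraries were higher and 1376 lower (2302 in all), and 185 genes had more open regions; fewer regions and genes were tested. A q-value threshold left 915 opened regions, while 2910 regions closed. It called again 58.0% of the opened and 97.9% of the closed regions. Similar totals do not mean that the same regions were called. The stronger 50% of the kept peaks called again 204 of the opened and 229 of the closed regions. All deposited peaks called again 855 and 965. Requiring peaks to cover at least 50% of the region called again 721 and 1026. Requiring absence from the other group's whole deposited lists left 859 opened and 968 closed. With all deposited peaks, 69 genes had more and 170 fewer open regions (239 in all); the cause was not tested.

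The labels give both groups the same replicate numbers, but same-numbered libraries did not deviate together (correlations of -0.0129 to 0.0216 for peak heights and -0.0382 to 0.0223 for genes). With the replicate block, 122 genes had more and 157 fewer open regions (279 in all), 2178 and 2814 regions were higher and lower in peak height, and 0 of the 13 shares passed (smallest adjusted p = 0.181, by an exact permutation of signs). With 400 bp windows 0 shares passed (smallest adjusted p = 0.0531, exact permutation).

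Leaving out 1 library at a time gave 1716 to 2059 opened and 2288 to 2493 closed regions, 1795 to 2163 regions higher and 2436 to 2929 lower in peak height (4250 to 5092 in all), 203 to 245 genes with more and 249 to 405 with fewer open regions (480 to 631 in all), and differences between hi-77+/+ and 9aa-Ins libraries of -59.4 to -56.5 percentage points at closed and -3.63 to -1.69 at opened regions. The number of shares that passed was 0 each time, since 3 against 4 libraries cannot go below p = 0.0571 in an exact permutation test. The number of genes with fewer open regions moved by over 1.5 times without any 1 of the 4 empty libraries (249 to 280). Shares that had not passed changed sign. TGATTNAT stood at -0.0337 percentage points with 400 bp windows and ranged from -0.0282 (without GATA2 replicate 4) to 0.0745 when 1 library was left out, with -0.0211 without empty replicate 3. TTCNNNGAA stood at 0.0755 with the stronger 50% of peaks and ranged from -0.0971 to 0.0213, the latter without GATA2 replicate 1. Of the 15 list genes past the threshold 3 passed with the replicate block (Csf2ra, Csf2rb and Ifngr1). Every named peak height kept its direction and call in the alternatives in which its region was still fitted. With tied peaks dropped, 9 of these regions were fitted. With the stronger 50% of the kept peaks the named regions did not enter the fit.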
